A study of Mus musculus with 12 samples.

Results

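Cholesterol and fatty acids are built from the same cytosolic acetyl-CoA, and the 38 genes described here encode the enzymes of both routes together with the proteins that switch them on and off. They are 18 genes of the sterol branch, 15 of the fatty acid branch and 5 regulators built around the sterol regulatory element-binding proteins (SREBPs), taken by name from a table of 37187 genes. All 38 were found in the table, and all passed the filter on low values that left 14045 genes for testing (3 or more libraries at a signal of 10 or above). The RNA came from mouse bone marrow cells sorted as lineage-negative, SCA-1-positive and CD117-positive, called LSK cells, a compartment of blood stem cells and early progenitors, with 3 libraries for each of 4 genotypes. The genotypes were Tet2;TRaf6 dKO (dKO, both genes knocked out), Traf6 KO, Tet2 KO and WT. Tet2 encodes an enzyme that oxidises methylated cytosine in DNA, and Traf6 a ubiquitin ligase of innate immune signalling. By its title, the study concerns TRAF6 and the oncoprotein MYC in acute myeloid leukaemia. The labels do not give the deleted exons, the promoter of any Cre, the animals' age or sex, or whether the 3 libraries of a genotype came from separate animals. The p-values therefore rest on library-to-library spread alone, part of which may be technical.

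In the sterol branch, acetyl-CoA units are joined to HMG-CoA, carried through mevalonate to farnesyl diphosphate, and folded into lanosterol, which is trimmed stepwise to cholesterol. In the fatty acid branch, acetyl-CoA is carboxylated to malonyl-CoA, assembled into palmitate by a single large synthase, and then desaturated and elongated. The SREBPs are transcription factors held in the membrane of the endoplasmic reticulum. When sterols are scarce, the escort protein SCAP carries them to the Golgi, where they are cut and released to the nucleus, whereas INSIG proteins keep SCAP in place when sterols are plentiful. Srebf2 is known mainly for sterol genes and Srebf1 mainly for fatty acid genes, and dividing blood cells can take up lipids as well as make them.

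The values are the authors' normalised signal, whole reads per gene divided by a factor per library, and 22169673 to 53921402 reads per library lay behind them. The dKO replicate 3 library stood apart: its signal summed to 39973892, against 25557760 to 28916082 in the other 11 libraries, and its 10 highest genes took 5.74% of the signal, against 2.55 to 3.67% elsewhere. The LSK label was checked against 12 marker genes, all detected in every genotype, whose summed signal was 115236 to 126983 in dKO, 134230 to 166428 in Traf6 KO, 136416 to 178451 in Tet2 KO and 154454 to 168910 in WT. Markers of other cells differed between dKO and WT, and in part between single knockouts and WT. The sum over 12 neutrophil and monocyte genes, led by Mpo, was 126694 to 205568 in dKO, 20438 to 122895 in Traf6 KO, 48451 to 103613 in Tet2 KO and 16688 to 31367 in WT. The other 6 lists did not overlap between dKO and WT either. Summed signal was higher in dKO for 9 erythroid genes (84005 to 120008 in dKO and 45085 to 56872 in WT), 8 macrophage and dendritic genes (2822 to 6064 in dKO and 661 to 1049 in WT), 6 mast cell and basophil genes (5752 to 9815 in dKO and 1315 to 2125 in WT) and 10 mature B, T and NK genes (9676, 14840 and 85414 across the dKO libraries and 5898 to 7398 in WT). The B, T and NK sum was led by Nkg7, with a mean of 22502 in dKO and 3957 in WT, and its top value came from 1 dKO library. Cd3e and Cd3g were at 0 in all dKO and WT libraries, and Ncr1 in all dKO libraries. Summed signal was lower in dKO for 6 megakaryocyte genes (6605 to 10146 in dKO and 10169 to 12417 in WT) and 7 stromal and endothelial genes (2786 to 3582 in dKO and 4292 to 5074 in WT). The single knockouts left the WT range in some lists and overlapped it in others. In Traf6 KO and Tet2 KO, erythroid sums were 52380 to 62258 and 61565 to 183509. Mast cell and basophil sums were 3379 to 8738 and 1350 to 1759, and megakaryocyte sums 15435 to 19025 and 4833 to 5910, in the same order. The part of these cells in the lipid gene values was not tested. In such sorted bulk samples, fewer cells of a type and less RNA per cell cannot be told apart. Signal of the targeted genes remained in all libraries: Tet2 averaged 261 ± 64.3 in dKO, 496 ± 201 in Traf6 KO, 519 ± 135 in Tet2 KO and 682 ± 138 in WT (SD, n = 3 each), and Traf6 averaged 1026 ± 263 in dKO, 1299 ± 1028 in Traf6 KO, 2112 ± 896 in Tet2 KO and 2632 ± 605 in WT. The library labelled Tet2 KO replicate 1 (Tet2 at 668) and the library labelled Traf6 KO replicate 1 (Traf6 at 2474) lay within the WT range. Libraries also differed by sex-linked genes: Xist, transcribed from the inactive X chromosome of females, was at 990.3 or more in every Traf6 KO and Tet2 KO library and at 17.0 or less in every dKO and WT library. Where a single knockout is compared with WT or dKO, genotype cannot be told apart from this difference.

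The promoters of 4 members are shown, because they kept their calls in dKO under the length correction defined with the results and have 1 promoter window each. Of these, Hmgcs1, Fasn and Acly fell in dKO and Ebp rose. Each is the RefSeq window on GRCm38.p6 from 250 bases before to 50 bases after the transcription start, written 5′ to 3′ along the gene. Capitals mark every match, on either strand, to TCACNCCAC (a sterol regulatory element), CCAAT (the box bound by NF-Y, read as ATTGG on the other strand) or CACGTG (an E-box). Hmgcs1 lies at chr13:119690101-119690400 on the plus strand, Ebp at chrX:8193463-8193762, Fasn at chr11:120824498-120824797 and Acly at chr11:100527951-100528250, these 3 on the minus strand.
Hmgcs1: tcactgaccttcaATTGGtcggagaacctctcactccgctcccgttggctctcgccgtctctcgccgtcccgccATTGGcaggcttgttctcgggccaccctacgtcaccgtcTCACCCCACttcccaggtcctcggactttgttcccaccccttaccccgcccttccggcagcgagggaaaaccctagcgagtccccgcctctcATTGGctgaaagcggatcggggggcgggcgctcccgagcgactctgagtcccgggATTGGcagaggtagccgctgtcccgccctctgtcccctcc
Ebp: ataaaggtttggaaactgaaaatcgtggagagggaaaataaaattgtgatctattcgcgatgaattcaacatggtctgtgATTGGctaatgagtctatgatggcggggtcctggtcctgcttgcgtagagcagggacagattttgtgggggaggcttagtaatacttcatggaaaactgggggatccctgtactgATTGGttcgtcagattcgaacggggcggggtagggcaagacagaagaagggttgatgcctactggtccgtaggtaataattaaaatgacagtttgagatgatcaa
Fasn: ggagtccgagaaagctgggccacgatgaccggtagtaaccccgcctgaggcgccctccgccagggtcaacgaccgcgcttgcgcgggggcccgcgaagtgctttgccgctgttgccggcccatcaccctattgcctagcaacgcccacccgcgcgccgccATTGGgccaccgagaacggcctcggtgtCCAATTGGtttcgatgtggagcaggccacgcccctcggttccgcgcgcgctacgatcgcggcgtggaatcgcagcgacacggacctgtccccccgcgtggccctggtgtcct
Acly: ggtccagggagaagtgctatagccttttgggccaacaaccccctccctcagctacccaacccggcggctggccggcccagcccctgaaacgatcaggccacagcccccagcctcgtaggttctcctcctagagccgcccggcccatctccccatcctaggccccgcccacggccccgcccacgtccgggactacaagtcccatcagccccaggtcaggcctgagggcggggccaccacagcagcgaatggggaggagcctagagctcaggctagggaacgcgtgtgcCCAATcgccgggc
The Hmgcs1 window held 1 TCACNCCAC match and 4 CCAAT matches, the Ebp window 2 CCAAT matches, the Fasn window 3, of which 2 on opposite strands overlap, and the Acly window 1. Windows were found for 31 of the 38 members, 41 windows in all. TCACNCCAC stood in 1 of the 41 member windows (2.44%) and in 1.24% of all 32851 windows. CCAAT stood in 27 member windows (65.9%) and in 37.4% of all windows, and CACGTG in 7 (17.1%) and in 7.15% of all windows. A match describes the letters and is not a bound site.

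In WT cells the routes differed widely in level. Per kilobase of the longest transcript, the mean WT signal was highest for Acly at 3306, followed by Elovl5 at 1983, Scd2 at 1861, Elovl1 at 1627 and Srebf2 at 1534. The sterol branch was led by Dhcr7 at 859, Sqle at 748 and Hmgcs1 at 728 signal units per kilobase. The 3 lowest were Me1 at 24.1, Acacb at 21.2 and Scd1 at 4.57, so that the 2 stearoyl-CoA desaturases among the members differed widely in level. These 2 desaturase genes lie close together on chromosome 19 of GRCm38 (Scd2 at chr19:44293674-44306864 and Scd1 at chr19:44394455-44407879), while Fasn (chr11:120805846-120824547), Acly (chr11:100476353-100528000) and Srebf1 (chr11:60199089-60222581) lie apart on chromosome 11.

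**Figure D1:**
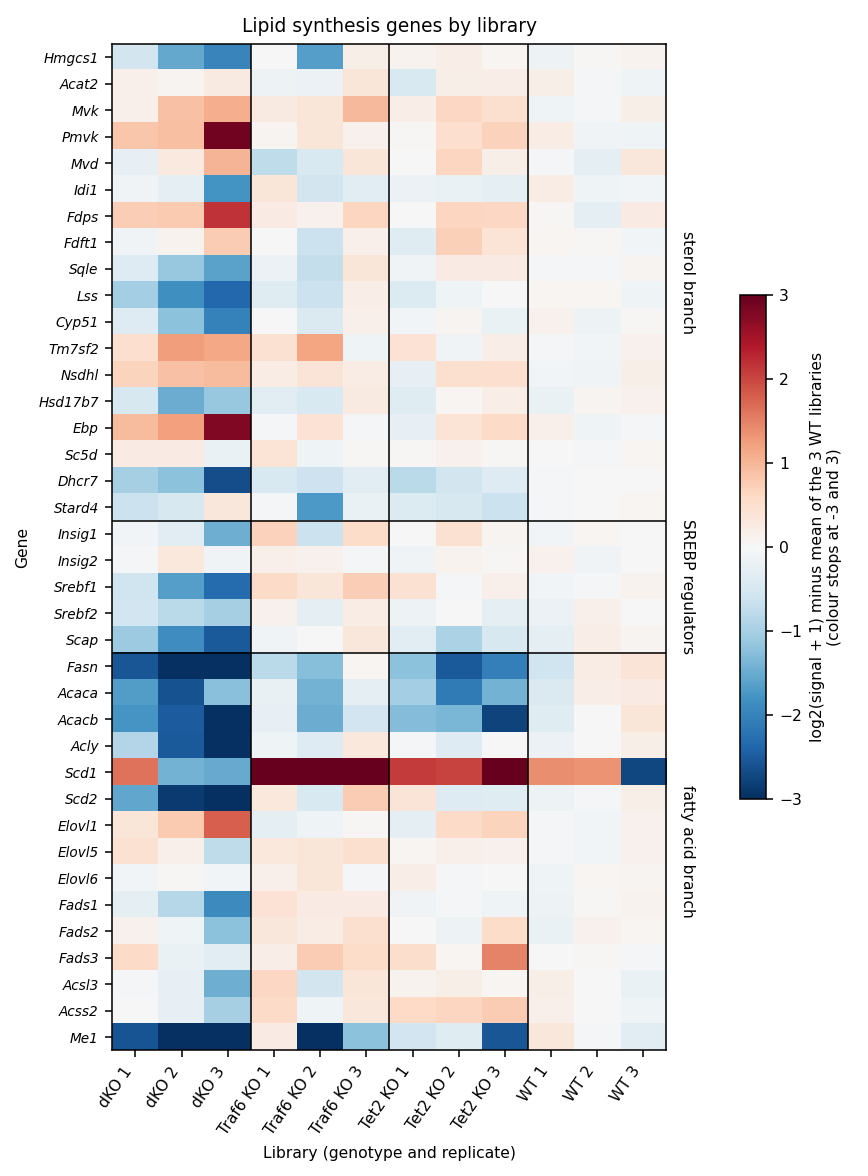
Each cell is 1 library's log2(signal + 1) minus the mean of the 3 WT libraries (colour, limits of 3 either way), with the 38 genes down the page by branch and the dKO, Traf6 KO, Tet2 KO and WT libraries from left to right. The dKO columns hold most of the strong colours, in both directions, and dKO replicate 3 is the most extreme of them for many genes.

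The comparison of dKO with WT addressed these routes under combined knockout of Tet2 and Traf6. In the fatty acid branch 7 of 15 genes fell and 1 rose, among them the steps from citrate to palmitate and its desaturation. In the sterol branch 6 of 18 genes fell and 4 rose, side by side along one pathway. Of the 5 regulators, Srebf1, Srebf2 and Scap fell. That made 5 higher and 16 lower members of 38 (55.3%), read against 48.3% of all 14045 tested genes called in either direction, 21.9% higher and 26.5% lower, so the share of members called was near that of the transcriptome. Calls are adjusted p-values under 0.05 from limma on log2(signal + 1), Benjamini-Hochberg adjusted over all tested genes, and changes are on that log2 scale. Because the change in dKO moved with transcript length over all genes, a trend on length and GC content was also taken off in each library. The result is here called the length-corrected change, and it is given for each member called in dKO against WT.

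Fasn, the synthase that assembles palmitate, had the smallest p of all members. Its signal was 955, 550.4 and 693 in dKO, 3246, 2338 and 5879.9 in Traf6 KO, 2439.6, 990.3 and 1377 in Tet2 KO and 3774, 6599.9 and 7398 in WT. All 3 dKO libraries were below every library of the other genotypes, and Tet2 KO libraries were also below all WT libraries. The dKO mean was 8.08 times lower than the WT mean, a log2 change of -2.99 (SE 0.41, adjusted p = 0.000349), and the length-corrected change was -1.04 (adjusted p = 0.00567).

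Acly, which cuts citrate to release the acetyl-CoA used by both branches, had 7976, 2525 and 1657 in dKO, 13414, 11149 and 18264 in Traf6 KO, 13982, 11201 and 14420.2 in Tet2 KO and 12783, 14654 and 16461 in WT. The dKO libraries lay below all others and spread widely, with replicate 1 well above replicates 2 and 3. The dKO mean of Acly was 3.61 times lower than the WT mean, a log2 change of -2.18 (SE 0.43, adjusted p = 0.00196) and a length-corrected one of -1.22 (adjusted p = 0.0111). Acss2, which makes acetyl-CoA from acetate instead, had 2445, 2023 and 1209.9 in dKO, 3605, 2201 and 3063 in Traf6 KO, 3655, 3780.3 and 4073 in Tet2 KO and 2672, 2389 and 2196 in WT. Its dKO and WT libraries overlapped, and its change of -0.41 (adjusted p = 0.230) did not pass the test.

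Acaca and Acacb encode the carboxylases that make malonyl-CoA, the building block for Fasn and, for Acacb, a brake on fatty acid oxidation. Acaca had 101, 52.2 and 136 in dKO, 279, 122 and 268 in Traf6 KO, 160.3, 73.6 and 122 in Tet2 KO and 239.8, 371 and 389 in WT. Acacb had 52.6, 31.3 and 21.4 in dKO, 154, 63.8 and 122 in Traf6 KO, 72.8, 69.7 and 25.9 in Tet2 KO and 142, 182 and 235 in WT. For both, dKO and also Tet2 KO libraries lay below every WT library. In dKO against WT the log2 changes were -1.85 (SE 0.48, adjusted p = 0.00777) for Acaca and -2.44 (SE 0.55, adjusted p = 0.00393) for Acacb, and neither call held with length correction, at -0.20 (adjusted p = 0.663) and -0.58 (adjusted p = 0.336). Their longest transcripts, of 9513 and 8788 nt, are among the longest of the set.

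Me1, the cytosolic malic enzyme that supplies NADPH for fatty acid synthesis, was scarce throughout. It had 12.2, 2.61 and 7.15 in dKO, 92.8, 8.12 and 32.8 in Traf6 KO, 51.7, 60.0 and 12.4 in Tet2 KO and 98.6, 76.5 and 62.5 in WT. All dKO libraries were below all WT libraries, the Tet2 KO libraries lay between them without overlap with either, and the Traf6 KO libraries spread across both ranges. The log2 change was -3.43 (SE 0.88, adjusted p = 0.00719), and with length correction -3.29 (adjusted p = 0.0157), the change that moved least among the genes that fell in this branch.

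Scd2 and Scd1 encode desaturases that turn stearoyl-CoA into oleoyl-CoA. Scd2 had 3452, 1389 and 1199 in dKO, 12533, 7325 and 17267 in Traf6 KO, 13202, 7728 and 7867 in Tet2 KO and 9129, 9934 and 11394 in WT. The 3 dKO libraries stood below every other library. The dKO mean of Scd2 was 5.04 times lower than the WT mean, at a log2 change of -2.50 (SE 0.39, adjusted p = 0.000650) and -1.26 (adjusted p = 0.00308) with length correction. Scd1 had 39.4, 3.91 and 3.57 in dKO, 167, 146 and 103 in Traf6 KO, 54.8, 52.3 and 129 in Tet2 KO and 33.3, 32.0 and 0.962 in WT. All Traf6 KO and Tet2 KO libraries were above all dKO and WT libraries, the Traf6 KO mean was the highest, and 1 WT library and 2 dKO libraries were close to 0. Xist splits the libraries in the same way, so for Scd1 genotype and the sex-linked difference cannot be told apart. Its dKO and WT groups overlapped, and its change of -0.43 (SE 1.08, adjusted p = 0.762) did not pass the test.

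Among the genes for elongation and further desaturation, Elovl1, which elongates saturated very long chains, was the single fatty acid gene that rose in dKO. It had 3759, 5029 and 10121 in dKO, 2436, 2702 and 2990.1 in Traf6 KO, 2450.2, 4358 and 4702 in Tet2 KO and 2884, 2762 and 3194 in WT. Every dKO library was above every WT library, led by replicate 3. The log2 change was 0.97 (SE 0.34, adjusted p = 0.0297), with 0.28 (adjusted p = 0.378) after length correction. Its call also ended without WT replicate 1, 2 or 3 (0.96 (adjusted p = 0.0685), 0.92 (adjusted p = 0.0848) and 1.03 (adjusted p = 0.0590)) and without dKO replicate 3 (0.56 (adjusted p = 0.106)). Fads1, a front-end desaturase of polyunsaturated fatty acids, had 4004, 2631 and 1278 in dKO, 6508, 5696 and 5727 in Traf6 KO, 4488, 4661 and 4378 in Tet2 KO and 4328, 4926 and 5171 in WT. The dKO libraries lay below all others for Fads1, at a log2 change of -1.01 (SE 0.32, adjusted p = 0.0192) and -0.56 (adjusted p = 0.133) with length correction. The Fads1 change was -0.56 without dKO replicate 3, and its call ended without WT replicate 2 (-0.99 (adjusted p = 0.0577)) or WT replicate 3 (-0.96 (adjusted p = 0.0631)). Elovl5, Elovl6, Fads2, Fads3 and Acsl3, which elongate, desaturate or activate long-chain fatty acids, did not pass the test, with changes of -0.60 for Acsl3 to 0.01 for Fads3. Elovl6, which extends palmitate and had a change of -0.04 (adjusted p = 0.883), was called higher with length correction at 1.04 (adjusted p = 0.00751).

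**Figure D2:**
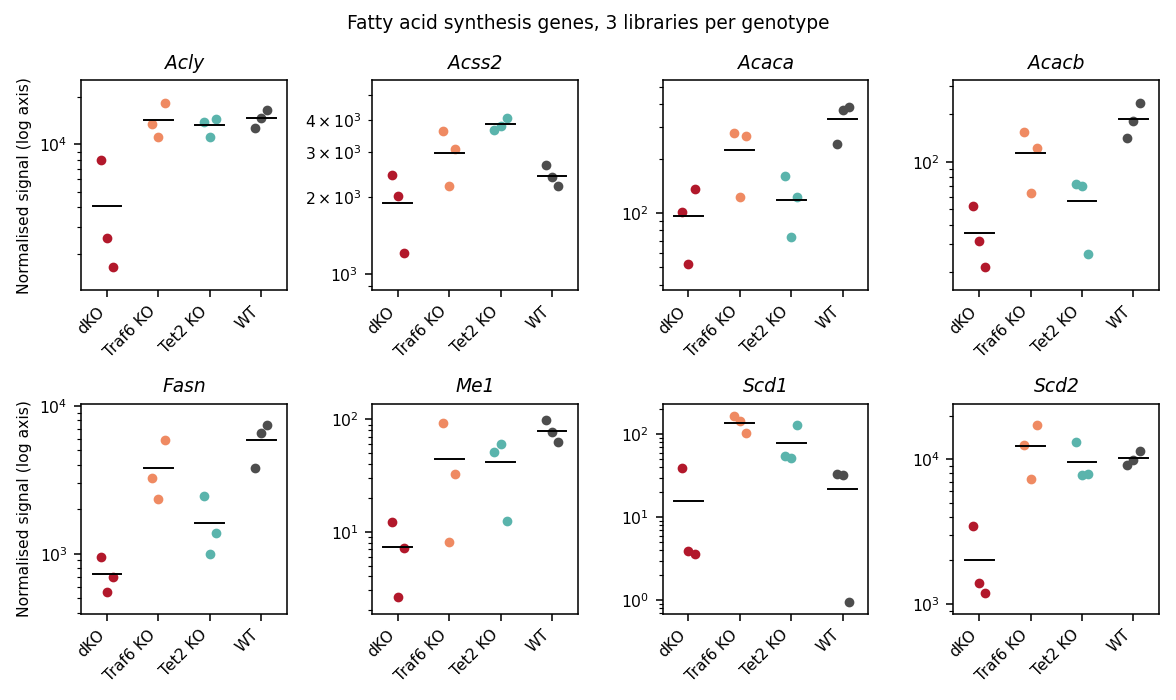
Normalised signal (log axis) of 8 fatty acid synthesis genes, 1 dot per library and a line at the mean of each genotype, with dKO, Traf6 KO, Tet2 KO and WT from left to right. The dKO dots of Fasn, Acly and Scd2 lie below all others, Acaca, Acacb and Fasn are also low in Tet2 KO, and Scd1 has its highest mean in Traf6 KO.

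In the steps of sterol synthesis up to squalene, 1 gene fell and 2 rose. Hmgcs1, which forms HMG-CoA, had 1717, 871 and 633 in dKO, 2515, 796 and 2845 in Traf6 KO, 2725, 2900.3 and 2636 in Tet2 KO and 2279.8, 2557 and 2727 in WT. The dKO libraries lay below all WT and Tet2 KO libraries, but Traf6 KO replicate 2 was as low as they were. Hmgcs1 changed by -1.36 (SE 0.44, adjusted p = 0.0220) and by -1.16 (adjusted p = 0.0307) with length correction. Its call ended at -1.27 (adjusted p = 0.0620) without dKO replicate 2, at -1.04 (adjusted p = 0.0813) without dKO replicate 3, at -1.34 (adjusted p = 0.0600) without WT replicate 2 and at -1.30 (adjusted p = 0.0660) without WT replicate 3.

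Pmvk, the kinase that makes mevalonate diphosphate, had 696, 728 and 2933 in dKO, 417, 501 and 429 in Traf6 KO, 403, 559.5 and 632 in Tet2 KO and 458, 367 and 357 in WT. Fdps, which makes farnesyl diphosphate, had 833, 859.5 and 2234 in dKO, 589, 544 and 783 in Traf6 KO, 493, 779 and 774 in Tet2 KO and 508, 416 and 588 in WT. For both genes every dKO library was above every library of the other genotypes, and replicate 3 was far above the other dKO libraries. The dKO mean of Pmvk was 3.69 times the WT mean, a log2 change of 1.54 (SE 0.45, adjusted p = 0.0142) that was 0.86 without dKO replicate 3 and 0.42 (adjusted p = 0.177) with length correction. Fdps changed by 1.23 (SE 0.37, adjusted p = 0.0167) and kept its call with length correction at 1.30 (adjusted p = 0.0127), but was 0.76 without dKO replicate 3 and lost the call without WT replicate 2 (1.10 (adjusted p = 0.0660)). Fdft1, squalene synthase and the first step committed to sterols, had 606, 700.4 and 1096 in dKO, 655, 414 and 722 in Traf6 KO, 501, 1065 and 859 in Tet2 KO and 673, 663 and 611 in WT, with overlapping groups and a change of 0.26 (adjusted p = 0.555). Its exons share 774 nt with Ctsb on the opposite strand, and reads of such partners cannot be told apart in this kit. Shared exon stretches of over 100 nt also join Tm7sf2 to Vps51 (532 nt), Hmgcs1 to Gm48342 (458 nt), Scap to 5830462I19Rik (327 nt), Idi1 to Gm48574 (323 nt), Acss2 to Acss2os (222 nt) and Srebf1 to Rai1 (109 nt), among others, so these counts are uncertain to that extent. Acat2, Mvk, Mvd and Idi1, the other enzymes of these steps, did not pass the test, with changes from -0.73 for Idi1 to 0.71 for Mvk.

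From squalene to cholesterol, 5 genes fell and 2 rose. Sqle, the epoxidase that starts ring formation, had 2558, 1514 and 1090.2 in dKO, 2948, 2042 and 4309 in Traf6 KO, 3125, 3948 and 3947 in Tet2 KO and 3224, 3246 and 3559 in WT. Lss, which closes the rings to lanosterol, had 452, 256 and 179 in dKO, 704, 580.0 and 1044 in Traf6 KO, 688, 833 and 914 in Tet2 KO and 952, 957 and 833 in WT. For both, all dKO libraries were below all WT libraries, and for Lss below every other library. Sqle changed by -1.05 (SE 0.32, adjusted p = 0.0172) and lost its call without WT replicate 3 (-1.0 (adjusted p = 0.0566)), without dKO replicate 3 (-0.76 (adjusted p = 0.0577)) and with length correction (-0.19 (adjusted p = 0.577)). Lss changed by -1.73 (SE 0.34, adjusted p = 0.00206), which no left-out library ended, but which was -0.28 (adjusted p = 0.552) with length correction.

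Cyp51 removes a methyl group of lanosterol and had 2073, 1149 and 654 in dKO, 2718, 1996 and 2980.3 in Traf6 KO, 2522, 2838 and 2328 in Tet2 KO and 2933, 2422 and 2740.1 in WT. Its dKO libraries were below all Tet2 KO and WT libraries, with a change of -1.21 (SE 0.34, adjusted p = 0.0112), -0.80 without dKO replicate 3 and -0.71 (adjusted p = 0.0607) with length correction. Dhcr7, which completes cholesterol in the final reduction of one route, had 1204, 1028 and 382 in dKO, 1764, 1572 and 1957 in Traf6 KO, 1383, 1643 and 1849 in Tet2 KO and 2377, 2443 and 2437 in WT. The 3 WT libraries were closely spaced and above all others, and the dKO libraries were the lowest. The dKO mean of Dhcr7 was 2.78 times lower than the WT mean, a log2 change of -1.63 (SE 0.35, adjusted p = 0.00304). With length correction the Dhcr7 change was -1.58 (adjusted p = 0.00312), close to the uncorrected one.

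Ebp, the sterol isomerase, and Nsdhl, a dehydrogenase of the demethylation steps, are both on the X chromosome and both rose. Ebp had 2287, 2816 and 8142 in dKO, 1161, 1624 and 1159 in Traf6 KO, 1007, 1589 and 1785 in Tet2 KO and 1335, 1085 and 1170.5 in WT. Nsdhl had 1556, 1799 and 1894 in dKO, 1144, 1279.5 and 1144 in Traf6 KO, 825, 1354 and 1396 in Tet2 KO and 931, 909 and 1105 in WT. In each case every dKO library was above all others. Ebp changed by 1.65 (SE 0.40, adjusted p = 0.00558), by 1.09 without dKO replicate 3 and by 0.90 (adjusted p = 0.0180) with length correction. Nsdhl changed by 0.83 (SE 0.25, adjusted p = 0.0152), without a call after length correction (0.31 (adjusted p = 0.340)) or without WT replicate 2 (0.78 (adjusted p = 0.0588)). The dKO and WT libraries were alike in Xist and in the Y-linked Eif2s3y, which was at 2812 or more in each of them.

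Hsd17b7, the ketone reductase of the same demethylation steps, had 301, 150.0 and 191 in dKO and 366, 448 and 463 in WT. Its groups did not overlap, at a change of -1.04 (SE 0.34, adjusted p = 0.0227), and the call ended with length correction (-0.33 (adjusted p = 0.496)) and without dKO replicate 2 (-0.82 (adjusted p = 0.0880)) or WT replicates 2 (-1.0 (adjusted p = 0.0718)) or 3 (-0.98 (adjusted p = 0.0770)). Tm7sf2, a sterol reductase, had 0.98 (adjusted p = 0.0580) with every dKO library above every WT library, Sc5d, a sterol desaturase, 0.10 (adjusted p = 0.733), and Stard4, a cholesterol carrier, -0.26 (adjusted p = 0.608). Sc5d was called higher with length correction, at 0.83 (adjusted p = 0.0108).

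**Figure D3:**
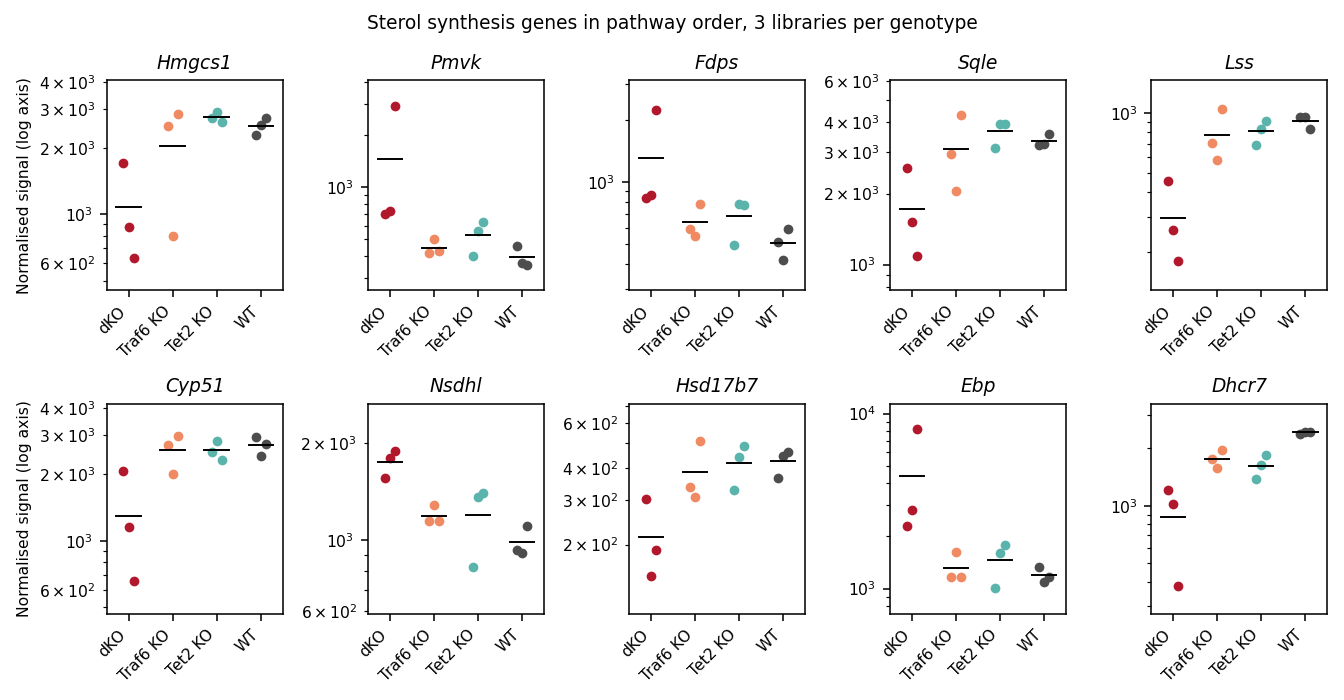
Normalised signal (log axis) of 10 sterol synthesis genes in pathway order, 1 dot per library and a line at the mean of each genotype, with dKO, Traf6 KO, Tet2 KO and WT from left to right. The dKO dots lie above the WT dots for Pmvk, Fdps, Nsdhl and Ebp and below them for the other 6 genes.

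The regulators that carry and form the SREBPs fell in dKO, whereas Insig1 and Insig2, whose proteins hold them back, were not called. Srebf1 had 2728, 1303 and 833 in dKO, 6086, 5319 and 6919 in Traf6 KO, 5630.2, 3977 and 4602 in Tet2 KO and 3909, 4037 and 4419 in WT. Srebf2 had 5197, 4426 and 3901 in dKO, 8548, 6472 and 8998 in Traf6 KO, 6992, 7839 and 6359 in Tet2 KO and 6919.6, 8665 and 7779 in WT. Scap had 1340.1, 781 and 495 in dKO, 2630.3, 2864 and 3622 in Traf6 KO, 2300.4, 1469.5 and 2032 in Tet2 KO and 2342, 3273 and 3001 in WT. For all 3 genes every dKO library was below every library of the other genotypes. The changes were -1.52 (SE 0.34, adjusted p = 0.00367) for Srebf1, -0.79 (SE 0.21, adjusted p = 0.00774) for Srebf2 and -1.82 (SE 0.33, adjusted p = 0.00126) for Scap, and no left-out library ended these calls. With length correction they were -0.32 (adjusted p = 0.376) for Srebf1, 0.63 (adjusted p = 0.0307) for Srebf2, now called in the opposite direction, and -0.63 (adjusted p = 0.0779) for Scap.

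Insig1 had 1035, 870.0 and 397 in dKO, 1768, 699.5 and 1610.0 in Traf6 KO, 1096, 1504 and 1158 in Tet2 KO and 1042, 1153 and 1109 in WT, and Insig2 had 1030.4, 1319 and 974 in dKO, 1164, 1144 and 1018 in Traf6 KO, 983, 1126 and 1079.8 in Tet2 KO and 1155, 976 and 1039.7 in WT. Every dKO library was below every WT library for Insig1, at -0.63 (adjusted p = 0.199), while the Insig2 groups overlapped in all 4 genotypes, at 0.06 (SE 0.22, adjusted p = 0.846) in dKO against WT. Insig1 is itself a known SREBP target, Insig2 less so.

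**Figure D4:**
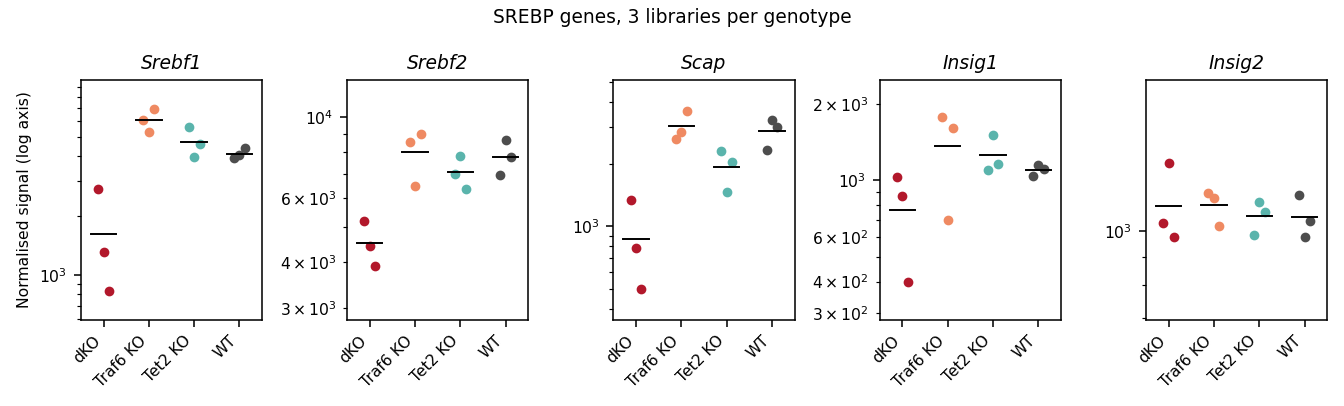
Normalised signal (log axis) of the 5 SREBP regulators, 1 dot per library and a line at the mean of each genotype, with dKO, Traf6 KO, Tet2 KO and WT from left to right. Srebf1, Srebf2 and Scap are lowest in the 3 dKO libraries, Srebf1 is highest on average in Traf6 KO, and the Insig2 dots overlap.

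By branch, the median change in dKO against WT was -0.60 for fatty acid genes, -0.79 for the regulators and 0.14 for sterol genes, against -0.09 for all tested genes, and the sterol median was -0.12 with libraries rescaled to equal totals, where that of all genes was -0.34. Groups did not overlap for 23 members, 6 higher and 17 lower, against 27.9% and 30.5% of all tested genes (58.4% either way). The direction of a member went with its length. The 5 that rose had longest transcripts of 1194 to 2953 nt (median 1811), and the 16 that fell 2815 to 10050 nt (median 4446.5). The rank correlation of change with length was -0.66 across the 38 members and -0.62 across all 13676 tested genes with a length. Genes are not independent replicates, and these correlations are descriptions. In the class over 5000 nt the median change was -1.79 for 8 members and -1.44 for all genes, and in the class up to 2000 nt it was 1.26 for 4 members and 1.18 for all genes.

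With length correction, 5 members were called higher and 6 lower (28.9%), against 29.7% of all genes, 17.1% higher and 12.6% lower. Of the 21 members called without it, 8 were called in the same direction: Fasn, Acly, Scd2, Me1, Hmgcs1 and Dhcr7 lower, Fdps and Ebp higher. The other 12, among them Srebf1, Scap, Acaca, Acacb, Sqle and Lss, lost the call, and Srebf2 turned. The corrected medians were -0.20 for fatty acid genes, -0.32 for regulators and 0.09 for sterol genes, against 0.04 for all genes. The cause of the length trend was not tested.

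**Figure D5:**
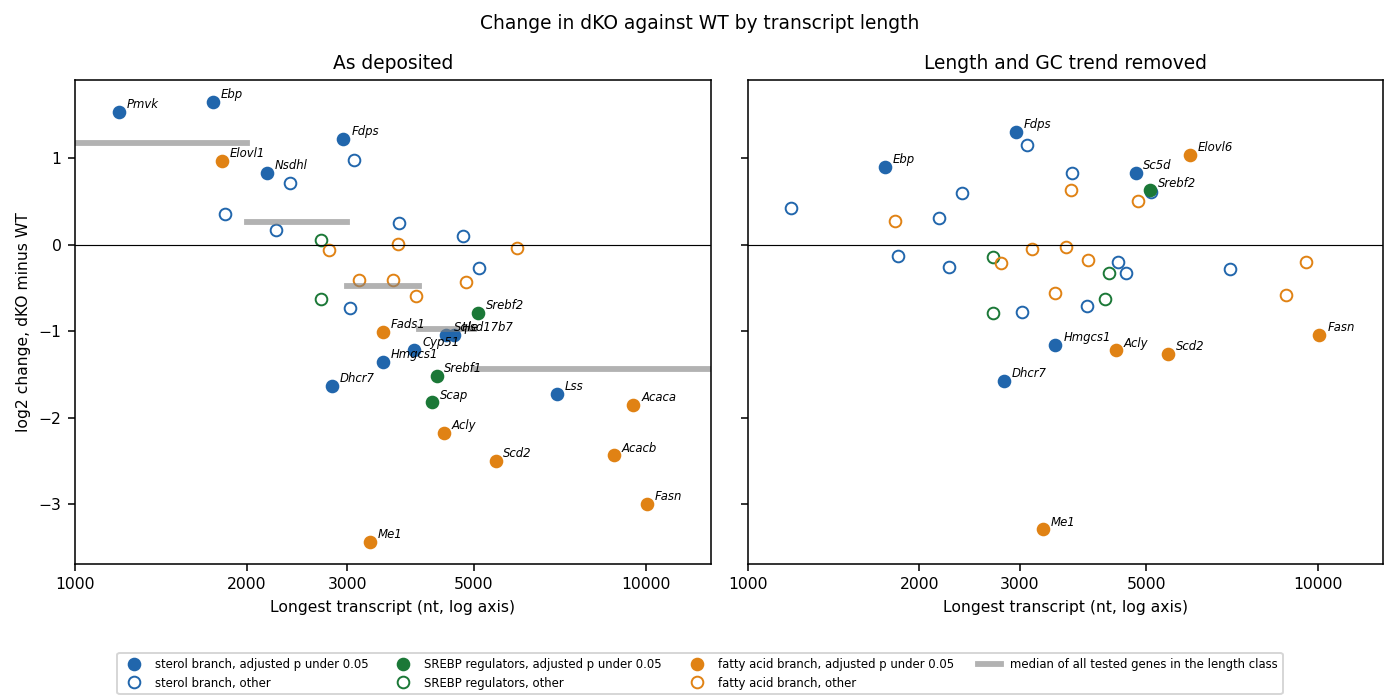
Log2 change in dKO minus WT of each member against its longest transcript (nt, log axis), as deposited at left and after removal of the trend on length and GC at right. Filled circles have adjusted p under 0.05 and grey bars are medians of all tested genes in 5 length classes. At left the members fall with length as the bars do, though single genes such as Me1, Dhcr7 and Elovl6 lie well off them. At right Me1, Dhcr7, Scd2, Acly, Hmgcs1 and Fasn stay low.

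The 3 dKO libraries did not share 1 level. The median over fatty acid genes, relative to the WT mean, was -0.08 in replicate 1, -0.87 in replicate 2 and -1.47 in replicate 3, and over the regulators it was -0.58, -0.81 and -1.47. Replicate 3 was the lowest of the 3 dKO libraries for 11 of 15 fatty acid genes, for all 5 regulators and for 7 of 18 sterol genes, 23 of 38 in all, against 35.0% of all tested genes. Sterol medians were -0.10, 0.10 and 0.31 in the same order of libraries.

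With Tet2 alone knocked out, Fasn, Acaca and Acacb were lower in every library than in any WT library, but no member was called. None passed limma's test in Tet2 KO against WT (against 0.413% of all tested genes), 5 members had an unadjusted p under 0.05 against 8.44% of all genes, and edgeR on the recovered reads called 0 and DESeq2 1, against 2.04% of all genes by DESeq2. All 5 were fatty acid genes: Fasn at -1.93 (adjusted p = 0.0641), Acacb at -1.82 (adjusted p = 0.232) and Acaca at -1.52 (adjusted p = 0.262) were lower, and Scd1 at 2.48 (adjusted p = 0.530) and Acss2 at 0.67 (adjusted p = 0.469) higher. Tet2 KO and WT libraries did not overlap for any of these 5 genes. In all, 4 members were higher and 8 lower without overlap, against 8.07% and 11.1% of tested genes (19.2% either way). Tet2 KO and WT libraries also differ in Xist, which cannot be told apart from genotype.

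Fasn was the member that DESeq2 called, at -1.88 (adjusted p = 0.00135). Fasn was also called without the library labelled Tet2 KO replicate 1, whose Tet2 signal lay in the WT range, at -2.28 (adjusted p = 0.0282), where 1.04% of all genes were called. With length correction its change was -1.0 (adjusted p = 0.0882). Branch medians were 0.05 for fatty acid genes, 0.13 for sterol genes and 0.01 for the regulators, against 0.02 for all genes. Length also ran with the change here, with a rank correlation of -0.52 across the 38 members and -0.37 across all genes.

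With Traf6 alone knocked out no member was called either, against 0.271% of all tested genes. Traf6 KO and WT libraries differ in Xist too, with the same limit. By limma 1 member had an unadjusted p under 0.05, against 7.80% of all genes, and edgeR and DESeq2 each called 0. That member was Scd1 at 3.39 (SE 1.08, adjusted p = 0.389), with all Traf6 KO libraries at 103 or more and all WT libraries at 33.3 or less. The Srebf1 change was 0.56 (adjusted p = 0.744), again with no overlap. Of the 38 members 8 were higher without overlap (Mvk, Nsdhl, Srebf1, Scd1, Elovl5, Fads1, Fads2 and Fads3) and 2 lower (Dhcr7 and Stard4), against 9.68% and 11% of tested genes (20.7% either way). Medians were 0.16 for fatty acid genes, -0.12 for sterol genes and 0.08 for the regulators, against -0.03 for all genes. Traf6 KO replicate 2 was the lowest of its group for 12 of 18 sterol genes and for 25 of 38 members, against 40.6% of tested genes, with a sterol median of -0.44 relative to WT, and Hmgcs1, Insig1, Stard4 and Me1 were well below the other 2 Traf6 KO libraries there.

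Set against Tet2 KO, dKO libraries had 1 member higher and 13 lower (36.8%), against 35.3% of all tested genes, 15.5% higher and 19.9% lower. This comparison and the next share the dKO libraries with the one against WT, so their values stand side by side and do not support each other. In both, the groups also differ in Xist, which cannot be told apart from genotype. Scd2 changed by -2.37 (SE 0.39, adjusted p = 0.00580), Acly by -2.03 (SE 0.43, adjusted p = 0.00849), Srebf1 by -1.71 (SE 0.34, adjusted p = 0.00748) and Lss by -1.55 (SE 0.34, adjusted p = 0.00961), calls that no left-out library ended. With only the dKO and Tet2 KO libraries fitted, however, 0 members were called, against 0.171% of all genes. Scd2 and Acly were also called with length correction (-1.47 (adjusted p = 0.00702) and -1.24 (adjusted p = 0.0214)), Srebf1 and Lss were not (-0.76 (adjusted p = 0.0602) and -0.61 (adjusted p = 0.203)). Acss2 fell at -1.08 (SE 0.27, adjusted p = 0.0137) and -0.70 (adjusted p = 0.0453) with length correction, in a comparison whose Tet2 KO libraries lay above all WT libraries for this gene. Its call ended without Tet2 KO replicate 1 (-1.11 (adjusted p = 0.0549)).

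Hmgcs1 was the other member called both ways, at -1.49 (adjusted p = 0.0223) and -1.31 (adjusted p = 0.0315) with length correction, and lost the call at -1.49 (adjusted p = 0.0748) without Tet2 KO replicate 1, at -1.45 (adjusted p = 0.0556) without Tet2 KO replicate 2, at -1.40 (adjusted p = 0.0603) without dKO replicate 2 and at -1.17 (adjusted p = 0.0736) without dKO replicate 3. The remaining calls were Ebp, higher, and Sqle, Cyp51, Hsd17b7, Dhcr7, Srebf2, Scap and Fads1, lower, each lost with length correction. Fasn did not pass the test between dKO and Tet2 KO, at -1.06 (adjusted p = 0.0556) and -0.04 (adjusted p = 0.923) with length correction, nor did Acaca at -0.33 (adjusted p = 0.611) or Acacb at -0.62 (adjusted p = 0.395). The 14 members called became 4 without Tet2 KO replicate 1 (against 6.17% of all genes), 9 without Tet2 KO replicate 2 (24.4%), 8 without dKO replicate 3 (23.4%) and 23 without dKO replicate 1 (47.9%), and 4 with length correction (10.5%, against 16.0% of all genes).

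Set against Traf6 KO, dKO libraries had 3 members higher and 13 lower (42.1%), against 38% of all tested genes, 17.3% higher and 20.7% lower. Scd2 changed by -2.70 (SE 0.39, adjusted p = 0.00192), Srebf1 by -2.08 (SE 0.34, adjusted p = 0.00212), Scap by -1.90 (SE 0.33, adjusted p = 0.00237), Fasn by -2.31 (SE 0.41, adjusted p = 0.00252) and Acly by -2.12 (SE 0.43, adjusted p = 0.00431), and none of these calls ended without 1 library. With length correction all 5 were still called: Scd2 at -1.79 (adjusted p = 0.00183), Srebf1 at -1.18 (adjusted p = 0.00893), Scap at -1.01 (adjusted p = 0.0155), Fasn at -0.98 (adjusted p = 0.0131) and Acly at -1.40 (adjusted p = 0.0102). With only the dKO and Traf6 KO libraries fitted, the Acly call ended, where 6.91% of all genes were called. For Srebf1 and Scap the Traf6 KO mean was above the WT mean.

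Fads1, Dhcr7 and Ebp were the others called both ways against Traf6 KO. Fads1 had -1.33 (adjusted p = 0.00978) and -1.01 (adjusted p = 0.0193) with length correction, and -0.88 without dKO replicate 3. Dhcr7 had -1.17 (adjusted p = 0.0233) and -1.21 (adjusted p = 0.0191) with length correction, -0.66 without dKO replicate 3, and no call without Traf6 KO replicate 1 (-1.17 (adjusted p = 0.0639)) or 3 (-1.09 (adjusted p = 0.0784)). Ebp had 1.53 (adjusted p = 0.0147) and 0.78 (adjusted p = 0.0463) with length correction, 0.97 without dKO replicate 3, and no call without Traf6 KO replicate 1 (1.45 (adjusted p = 0.0514)) or 3 (1.45 (adjusted p = 0.0545)). Scd1 fell to 39.4, 3.91 and 3.57 in dKO, against 167, 146 and 103 in Traf6 KO, a change of -3.82 (SE 1.08, adjusted p = 0.0192), with -3.12 (adjusted p = 0.0530) after length correction.

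The Scd1 call ended at -3.33 (adjusted p = 0.0531) without dKO replicate 2, at -3.28 (adjusted p = 0.0614) without dKO replicate 3, at -3.67 (adjusted p = 0.0606) without Traf6 KO replicate 1 and at -4.02 (adjusted p = 0.0503) without Traf6 KO replicate 3. Pmvk and Elovl1, higher, and Lss, Cyp51, Sqle, Srebf2 and Acacb, lower, were called as deposited but not with length correction, where Stard4 was called in their stead at 1.09 (adjusted p = 0.0480). Over all members, 9 were called with length correction (23.7%, against 19.3% of all genes), 8 without the library labelled Traf6 KO replicate 1 (against 16.2% of all genes), 7 without Traf6 KO replicate 3 (14.7%) and 25 without dKO replicate 1 (49.5%).

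Whether dKO differed from the sum of the single knockouts was tested as an interaction, the dKO change from Tet2 KO less the Traf6 KO change from WT. The contrast sets dKO and WT libraries together against both single knockouts, the same split as that of Xist. A departure from the sum and this sex-linked difference therefore cannot be told apart in it. No member passed limma's test, against 0.221% of all tested genes, while 12 had an unadjusted p under 0.05, against 18.6% of all genes. On the recovered reads edgeR called 0 and DESeq2 2 (against 1.62% of all genes), Scd2 at -2.53 (adjusted p = 0.00409) and Srebf1 at -2.10 (adjusted p = 0.00636). By limma these were -2.58 (SE 0.56, adjusted p = 0.124) for Scd2 and -2.27 (SE 0.48, adjusted p = 0.109) for Srebf1. With length correction Scd2 alone was called, at -2.0 (adjusted p = 0.0341), against 0.249% of all genes. Without dKO replicate 1, the library least different from WT in the fatty acid branch, 11 members were called against 17.4% of all genes, among them Srebf1 at -2.73 (adjusted p = 0.00126), Acly at -2.62 (adjusted p = 0.00241) and Scd1 at -7.33 (adjusted p = 0.00672). Myc, the gene named in the study's title, was called in none of the comparisons, its smallest adjusted p being 0.0528 for dKO against Traf6 KO.

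Around these routes, 8 further lists of 132 genes were counted, 126 of which were tested, and none held a called gene in Tet2 KO, in Traf6 KO or in the interaction. Their counts in dKO against WT are read against 21.9% of all genes higher and 26.5% lower, and with length correction against 17.1% higher and 12.6% lower. In dKO against WT, fatty acid oxidation, the route that opposes synthesis, had 11 of 23 genes higher and 4 lower (5 and 3 with length correction), with a median of 0.63. Echs1, a hydratase of the oxidation spiral, rose by 1.42 (adjusted p = 0.00107), while Cpt1a, the gate for entry into mitochondria, changed by -1.66 (adjusted p = 0.000964) and Acox3, a peroxisomal oxidase, by -1.73 (adjusted p = 0.000686). These 3 were also called with length correction, Echs1 at 2.07, Cpt1a at -0.78 and Acox3 at -0.97. Mitochondrial fatty acid synthesis, which feeds lipoic acid, had 5 of 8 genes higher and none lower (2 and 0 with length correction). It was led by Lias at 1.48 (adjusted p = 0.000729), Mecr at 1.56 and Mcat at 0.90. With length correction Lias was at 1.49, while Mecr at 0.54 (adjusted p = 0.105) and Mcat at 0.48 (adjusted p = 0.108) were not called.

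SREBP processing and turnover had 5 of 12 lower and none higher, against 26.5% and 21.9% of all genes. With length correction it had 1 lower and 1 higher, against 12.6% and 17.1%. Mbtps1, the protease that first cuts the SREBPs, was at -1.85 (adjusted p = 0.00133), Faf2 at -0.93 and Sp1 at -1.53. These became -0.35, -0.11 and -0.25 with length correction, without a call. LXR and its targets had 4 of 12 lower and none higher (2 and 0 with length correction). Rxra, the partner of the oxysterol-sensing LXRs, had -2.65 (adjusted p = 0.00446), Abca1, which exports cholesterol, -1.89 (adjusted p = 0.0167) and Nr1d1 -1.76 (adjusted p = 0.00434), of which Nr1d1 was called with length correction at -1.57. Sterol uptake and transport had 1 higher and 5 lower of 15 (3 and 1 with length correction). There, Osbp, an oxysterol-binding lipid carrier, had -2.17 (adjusted p = 0.000885), Hdlbp -1.78, and Npc2, which hands on cholesterol in lysosomes, 1.54 (adjusted p = 0.00328). After length correction Osbp was at -1.25 and Npc2 at 1.86, while Hdlbp, at -0.35 (adjusted p = 0.236), was not called.

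Against the same shares of all genes, the mevalonate side branches, which make prenyl groups, ubiquinone tails and dolichol, had 4 higher and 3 lower of 16 (1 and 2 with length correction). Icmt, which methylates prenylated proteins, had -2.41 (adjusted p = 0.000367) and -1.18 with length correction. Pdss1, for the ubiquinone tail, had 1.29 (adjusted p = 0.00271) and 0.76, and Rabggtb 1.11 and 0.49, the last not called. Elongation partners had 4 higher and 1 lower of 17 (2 and 0 with length correction). Ptpla (Hacd1), a dehydratase of the elongation cycle, was at 1.87 (adjusted p = 0.00501), Tecr, its reductase, at 1.67 and Acsl4 at -1.80. With length correction Ptpla was called at 1.18, while Tecr at 0.60 and Acsl4 at -1.04 were not called. Glycerolipid and phospholipid synthesis had 3 higher and 6 lower of 23 (4 and 5 with length correction). Gpam, the acyltransferase that opens triglyceride synthesis, changed by -4.25 (adjusted p = 0.00193) and by -2.89 with length correction, and the lipins Lpin2 and Lpin1 by -2.05 (adjusted p = 0.000383) and -2.01 (adjusted p = 0.00053), -0.78 and -0.72 with length correction.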

How the data were processed

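RNA of 12 sorted LSK samples was amplified with the SMART-Seq v4 Ultra Low Input kit, which does not mark strand, and sequenced on a HiSeq 4000, per the labels' protocols. Per the submitters' processing notes, the tools included STAR, featureCounts, DESeq2 and bcl2fastq, with GRCm38 and mm10 as builds. Versions, settings, annotation and the strand setting are not given in the sources used here. The deposited table holds a normalised signal per gene, made by the authors as whole reads divided by 1 factor per library: scaled so that a library's lowest non-zero value equals 1, 100% of values were whole (tolerance 1e-06), with 1 read worth 0.518 to 1.79 signal units.

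Because the values are normalised, genes were tested in R 4.3.3 by limma 3.58.1 (moderation robust and with trend) on log2(signal + 1), all 12 libraries in 4 groups, no covariates, over 14045 genes (3 or more libraries at 10 or above), Benjamini-Hochberg adjusted, threshold 0.05. A pseudocount of 1 understates changes of genes with few reads. On the recovered reads, edgeR 4.0.16 called 21, 14 and 17 members and DESeq2 1.42.0 called 23, 19 and 21 in dKO against WT, Tet2 KO and Traf6 KO. For the length-corrected changes, a loess trend (span 0.3) of each library on length and GC content (longest transcript, GENCODE M21) was taken off, over 13676 genes. Only the limma fit of dKO against WT was tried on simulated counts, with known changes and no length or GC trend. The other steps were not tried in that way. Other alternatives were a pseudocount of 5, no filter, equal library totals, a replicate block, only the 2 groups compared and each library left out in turn.

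The members and the 8 neighbour lists were chosen with earlier results of these data known. Values in every library are given for called members (the 10 with the smallest p per comparison) and for Hmgcs1, Sqle, Fdft1, Insig1, Insig2, Srebf1, Srebf2, Scap, Fasn, Acaca, Scd1 and Scd2, and neighbour genes are the 3 with the smallest p among those called. Nsdhl, Pmvk, Fdps, Elovl1 and Hsd17b7 were shown in addition. Gene names were matched to GENCODE M21 for 30477 of 37187 genes, and for all 38 members.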

Additional observations from a re-analysis of the deposited data

Results flagged for a closer look

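In 3 members, all Traf6 KO libraries lay above all WT libraries while all dKO libraries lay below all Tet2 KO libraries. The step to the genotype labelled as a Traf6 knockout thus ran in opposite directions with and without the Tet2 knockout label. For Srebf1, the transcription factor gene, the log2 change was -1.71 for dKO minus Tet2 KO and 0.56 for Traf6 KO minus WT, a difference of -2.27 (SE 0.48, adjusted p = 0.109). For the desaturase Scd1 the changes were -2.91 for dKO minus Tet2 KO and 3.39 for Traf6 KO minus WT, a difference of -6.30 (SE 1.52, adjusted p = 0.186), and for Fads1 they were -0.92 for dKO minus Tet2 KO and 0.32 for Traf6 KO minus WT, a difference of -1.24 (SE 0.45, adjusted p = 0.238). The difference did not pass the test for any of the 3. The same arrangement was seen in 1.08% of all tested genes and in 3 of 38 members (7.89%). The libraries labelled Tet2 KO replicate 1 and Traf6 KO replicate 1, whose targeted gene lay within the WT range, enter these values. WT and dKO libraries differ from both single knockouts in Xist, which cannot be told apart from genotype here.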

How the results depend on the processing

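In Tet2 KO against WT, 1 member was called with only the 2 groups compared, 1 with DESeq2 and 0 to 1 with each library left out, against 0. In Traf6 KO against WT the count stayed at 0 in every alternative run. In dKO against WT, 11 were called with the length and GC trend removed, alone or with the replicate block, and 15 to 23 with 1 library left out, against 21. With only the 2 groups compared, 15 were called there, 2 higher and 13 lower, against 36.1% of all genes. Pmvk, Fdps, Cyp51, Hsd17b7, Elovl1 and Fads1 lost the call in that fit. In dKO against Tet2 KO, 0 were called with only the 2 groups compared, 4 with the trend removed, 5 with the trend removed and the replicate block, and 4 to 23 with 1 library left out, against 14. In dKO against Traf6 KO these were 5, 9, 8 and 7 to 25, against 16. In the interaction, 1 was called with the trend removed, 1 with the trend removed and the replicate block, 2 with DESeq2 and 0 to 11 with 1 library left out, against 0. Over all genes the share called with 1 library left out was 33.5 to 55.3% in dKO against WT, 6.17 to 47.9% in dKO against Tet2 KO, 14.7 to 49.5% in dKO against Traf6 KO and 0.0997 to 17.4% in the interaction, and with only the 2 groups compared it was 2.33% in Tet2 KO against WT, 0.171% in dKO against Tet2 KO and 6.91% in dKO against Traf6 KO. The cause of these shifts was not tested.

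Directions reversed with the length and GC trend removed, alone or with the replicate block: Srebf2 at 0.63 (adjusted p = 0.0307, or 0.0193 with the block) in dKO against WT, 0.38 in dKO against Tet2 KO and 0.24 in dKO against Traf6 KO, and Elovl6 at 1.04 in dKO against WT. Rescaling to equal library totals moved the median change of all genes in dKO against WT to -0.34 from -0.09, and 3 members were then called higher and 16 lower.

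Replicate numbers are shared across genotypes, but same-numbered libraries did not deviate together (3 of 18 pairs over 0.1, r from -0.18 to 0.19, and 4 of 12 libraries closest to their own number), so the main fit used no pairing. The labels do not say whether the numbers mark a shared batch, and such correlations cannot exclude it. With the replicate block, 0, 0, 21, 15, 17 and 0 members were called in the comparisons in the order above. Each group had 3 libraries, and 1 dKO library stood apart. Depth limits Scd1 and Me1, which had values near 1 read in some libraries.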
